A study of Mus musculus with 2 samples.

Results

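When the mouse retina is injured or its photoreceptors are stressed, a set of genes for glial reaction, distress signals and their receivers is raised. Of these genes, 10 were read here in eye cups of wild-type mice and of mice labelled Mfsd2a KO: Gfap, Serpina3n, Lcn2, Edn2, Fgf2, Lif, Stat3, Socs3, Cebpd and Cd44. They were chosen by name, and every probe set annotated with one of these symbols alone was taken. This gave 22 of the 45101 probe sets on the array, or 22 of the 34945 that carried 1 gene symbol. The genes differed little between the arrays, and the transcripts best known as marks of gliosis were dim on both.

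Each group was 1 Affymetrix Mouse 430 2.0 array, which reads a transcript through probes mostly near its 3' end. RNA of 6 mice at postnatal day 13 was pooled in equal amounts for each array. By their description the groups shared age, tissue and preparation, though markers of bordering tissue differed between them, as given below. The eye cup held retina, pigment epithelium, choroid and sclera, since cornea, lens and optic nerve had been cut away. Strain, sex and the deleted part of Mfsd2a are not given in the sources used here. With 1 array per genotype there was no replicate, so neither a p-value nor an SD between samples is given, and precision is limited by how few arrays there were.

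Mfsd2a, which encodes a transporter of lysophosphatidylcholine carrying docosahexaenoic acid, was read first. Its 1 probe set stood at 181 in wild type and 244 on the other array, a log2 difference of 0.43. This is opposite to what a deletion of the probed sequence would give, and whether its probes lie in the deleted part was not analysed here. The second sample is therefore called the array labelled knockout, and every direction below rests on that label. Of the tissue markers, 14 of 14 of rods and cones, 20 of 20 of Mueller glia and 14 of 15 of pigment epithelium reached an array's median. So did 13 of 17 of lens, 11 of 16 of cornea and conjunctiva and 10 of 17 of skeletal muscle. Reaching this level therefore does not show that the eye cups were free of bordering tissue.

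Gliosis is the response of Mueller glia and astrocytes to injury, in which intermediate filaments and secreted proteins rise. In the retina it is tied to photoreceptors by diffusible signals. Stressed photoreceptors make endothelin 2, a subset of Mueller glia makes leukemia inhibitory factor, and that cytokine acts through the receptor chain gp130 and the transcription factor STAT3. Socs3 and Cebpd are switched on by STAT3, and SOCS3 then damps the same receptor.

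STAT3 binds DNA at motifs close to TTCNNNGAA, a sequence that reads the same on both strands. The motif was searched in windows from 250 bases before to 50 bases after a gene's start, taken from RefSeq on build GRCm38.p6. Windows were found for 9 of the 10 genes, all but Cebpd. A match occurred in those of Gfap and Socs3, against 8.3% of all 32851 windows of 300 bases. These stretches are shown because they stand at the starts of the classical gliosis gene and of the feedback inhibitor. Capitals mark the match. In Gfap it starts 2 bases before the gene's start and runs past it, and in Socs3 it starts 154 bases before. The whole stretches shown lie on the minus strand, at chr11:102897194-102897262 for Gfap and chr11:117969452-117969580 for Socs3.
Gfap: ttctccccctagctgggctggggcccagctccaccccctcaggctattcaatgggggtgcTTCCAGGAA
Socs3: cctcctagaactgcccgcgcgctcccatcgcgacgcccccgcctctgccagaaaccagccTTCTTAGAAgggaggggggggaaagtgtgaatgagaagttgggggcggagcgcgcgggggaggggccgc
A match of letters is not a measured binding site, and windows without a match show only that these letters are not there.

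Intensities below are the deposited linear values, and a difference is the log2 value of the array labelled knockout minus that of wild type. A probe set was called measured when it reached the median of either array (94.2 in wild type and 93.4 on the other), and dim otherwise. Of the 22 probe sets, 7 were measured and 15 were dim. The measured ones belonged to 4 genes, Stat3, Socs3, Cebpd and Cd44. The other 6 genes, Gfap, Serpina3n, Lcn2, Edn2, Fgf2 and Lif, were dim in every probe set on both arrays. A dim value may be mostly background signal, so a dim gene is not shown to be absent, and its difference is less certain.

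**Figure D1:**
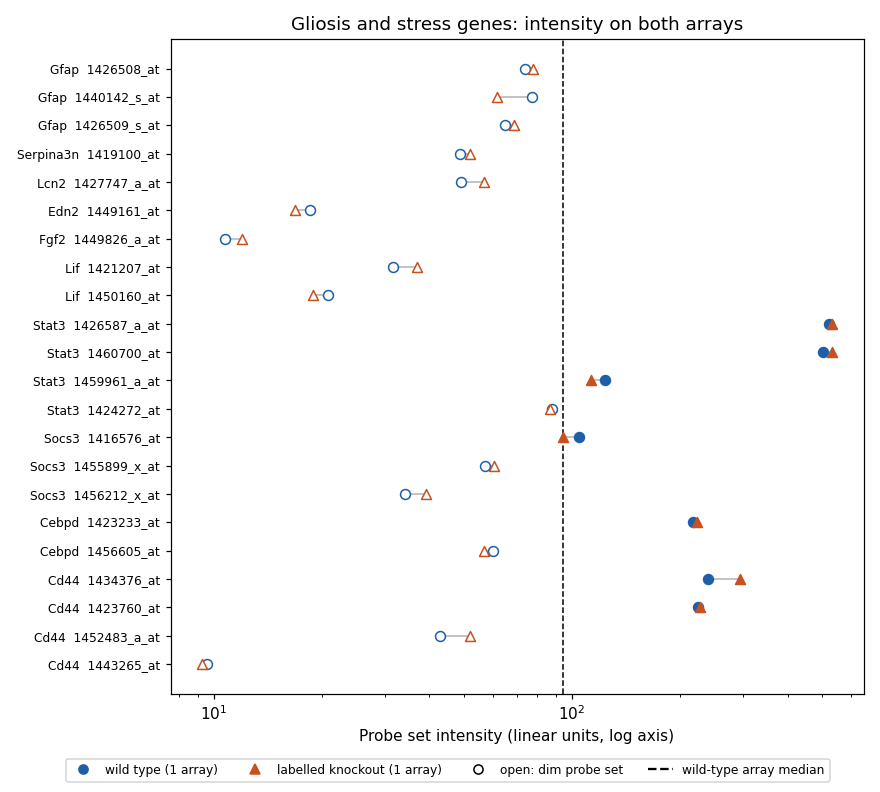
Intensity of each of the 22 probe sets on the wild-type array (circles) and the array labelled knockout (triangles), on a log axis. Open symbols are the 15 dim probe sets, filled symbols the 7 measured ones, and the dashed line is the wild-type median of 94.2. Most pairs nearly touch, and all probe sets of Gfap, Serpina3n, Lcn2, Edn2, Fgf2 and Lif lie left of the line.

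At a size of 1.2-fold, 1 of the 7 measured probe sets was higher on the array labelled knockout and 0 were lower. Over all 20105 measured probe sets with 1 symbol, 1.85% were that much higher and 1.15% that much lower. Of the 15 dim probe sets 1 was higher and 1 was lower by this size, against 3.59% and 6.36% of all 14840 dim ones. None of the 22 reached 1.5-fold, a size that 0.219% of all measured probe sets reached in either direction. The median log2 difference was 0.03 over the 7 measured probe sets, where all measured probe sets had 0.016. It was 0.08 over the 15 dim ones, where all dim probe sets had -0.04. By sign, 14 probe sets were above 0 and 8 below. The same count over all probe sets is not given here.

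A technical yardstick came from probe sets that read the same gene. Their log2 differences had a pooled SD of 0.0886 where measured (5201 genes) and of 0.158 where dim (2950 genes). By that yardstick 4 of the 7 measured and 9 of the 15 dim probe sets differed by less than 1 SD. The same share over all probe sets is not given here, so these counts do not set the members apart. The yardstick compares probe sets on the same 2 arrays, so it leaves out variation between pools and between hybridisations. Probe sets were also grouped into 20 bins of like level, and 2 of the 22, 1 of Cd44 and 1 of Gfap, lay outside the central 95% of their bin. That range leaves out 5.04% of all probe sets by construction.

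**Figure D2:**
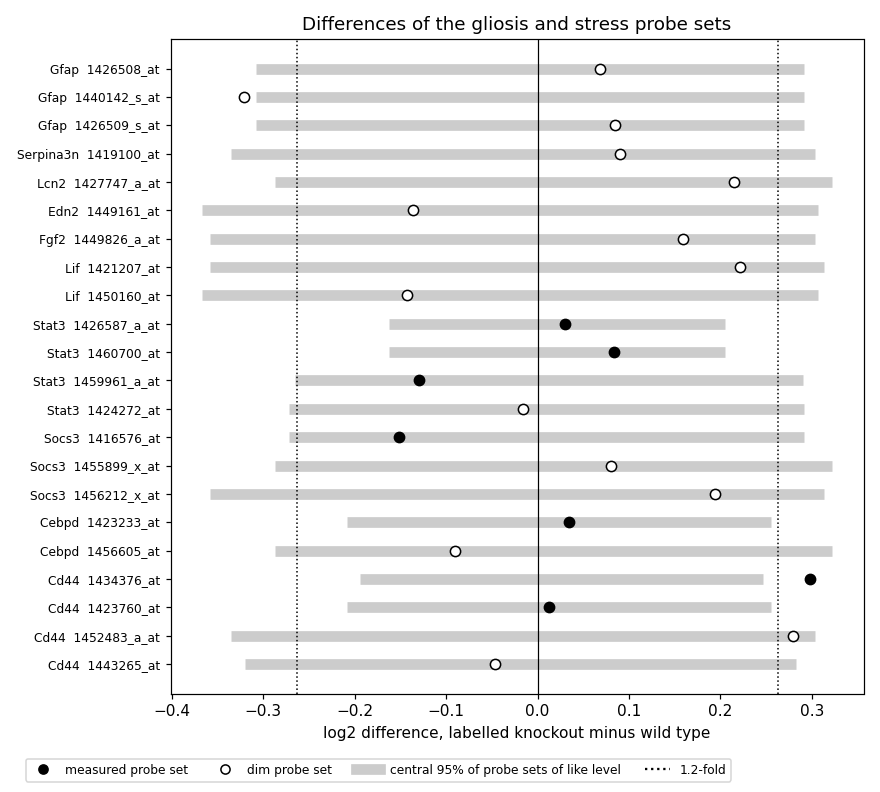
Log2 difference of each probe set, labelled knockout minus wild type; filled points are measured and open points dim. Grey bars give the central 95% of all probe sets of like level and dotted lines mark 1.2-fold. Points lie on both sides of 0, and 1 probe set each of Cd44 (0.30) and Gfap (-0.32) lies beyond its bar.

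The gliosis markers themselves came first. Gfap encodes the intermediate filament of astrocytes, which Mueller glia make in quantity only when reactive. Its probe set 1426508_at read 74.0 in wild type and 77.6 on the array labelled knockout. A further one, 1426509_s_at, read 64.8 and 68.8, and the third, 1440142_s_at, read 77.4 and 61.9. The differences were thus 0.07, 0.08 and -0.32, so that the probe sets of this gene disagreed in sign. The one with the largest difference was lower, not higher, on the array labelled knockout, and its name marks possible cross-hybridisation, as does that of 1426509_s_at. The optic nerve also holds astrocytes that make Gfap, and markers of its oligodendrocytes were lower in the same pool in several probe sets, given with the bordering tissues below. Their part in the Gfap values was not tested.

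Serpina3n encodes a secreted inhibitor of serine proteases that is prominent in reactive astrocytes. It read 48.6 and 51.8, a difference of 0.09 that is smaller than the SD of dim probe sets of one gene. Lcn2, a secreted carrier of iron-binding siderophores made by reactive glia and also stored in neutrophil granules, read 48.9 and 56.7. Its difference of 0.21 was above 1 SD of that yardstick but inside the range of its level bin, from -0.29 to 0.32.

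Markers of neutrophils were read beside Lcn2. Only 2 of the 12 on the array were measured, and 0 of those reached 1.2-fold. The summed level of the 12 was 734 in wild type and 740 on the array labelled knockout. Most of the 12 were dim, and the largest part of the sum was Mmp9, at 196 and 183. The near-equal sum therefore does not show that neutrophil transcripts were level. Among the dim ones S100a8, which encodes a calcium-binding protein of neutrophils and activated myeloid cells, read 22.7 and 59.97. That difference of 1.40 ranked 1st upward among all dim probe sets with 1 symbol. Its partner S100a9 read 42.7 and 61.4 (0.53), while the granule genes Camp (-0.20) and Ngp (-0.31) were lower, and Ltf had the same value of 54.6 on both arrays. The part of these cells in the Lcn2 value was not tested.

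The signals sent by photoreceptors and glia were dim in all of their probe sets. Edn2, the endothelin of stressed photoreceptors, read 18.5 and 16.8, a difference of -0.14. Its gene is the 1 member on the same chromosome as Mfsd2a, with 24 protein-coding genes between them in the RefSeq order. Fgf2 encodes basic fibroblast growth factor, which protects photoreceptors after injury, and read 10.7 and 11.97 (0.16). Lif was read by 2 probe sets, 1421207_at at 31.7 and 37.0 (0.22) and 1450160_at at 20.9 and 18.9 (-0.14). None of these probe sets stood outside the central 95% of its bin, and the pair for Lif went opposite ways.

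Stat3, the transcription factor that carries the signal of gp130 cytokines to the nucleus, had 4 probe sets. The brightest, 1426587_a_at, read 521 and 532, and 1460700_at read 502 and 532. These differences, 0.03 and 0.08, were each below 1 SD. The others were 1459961_a_at at 124 and 113 (-0.13) and 1424272_at at 87.9 and 86.9 (-0.02). STAT3 is governed mostly by phosphorylation, which an expression array does not read.

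Socs3, the feedback inhibitor whose promoter stretch is shown above, is often used as a readout of STAT3 activity. Its brightest probe set, 1416576_at, read 105 and 94.2, which is just over the floor, and differed by -0.15. The dim ones went the other way, at 57.3 and 60.6 (0.08) for 1455899_x_at and 34.3 and 39.2 (0.19) for 1456212_x_at. The names of both dim ones mark possible cross-hybridisation. The mean over the 3 probe sets was 0.04, so the sign of the Socs3 difference depends on the probe set taken. Cebpd encodes a C/EBP factor of the acute-phase response. Its probe sets read 218 and 223 (0.03) and 60.3 and 56.7 (-0.09), both below 1 SD.

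Cd44 gave the largest upward difference. It encodes the receptor for hyaluronan, found on the microvilli of Mueller glia and on many immune cells. Probe set 1434376_at read 240 in wild type and 295 on the array labelled knockout, a difference of 0.30 or 1.23-fold higher. The almost equally bright 1423760_at read 226 and 228, a difference of 0.01. Of the dim ones, 1452483_a_at read 42.8 and 51.9 (0.28) and 1443265_at read 9.57 and 9.27 (-0.05). A pair of the 4 probe sets was thus higher and a pair nearly level, and the mean of all 4 was 0.14. Where on the transcript each probe set lies was not analysed here.

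Markers of microglia and macrophages were higher in the same pool as Cd44. Of 13 measured, 8 reached 1.2-fold upward and 11 were above 0. Their median was 0.34, and their summed level was 4144 in wild type and 4933 on the array labelled knockout. C1qa, a complement subunit, read 278 and 379 (0.45), and Cx3cr1, the fractalkine receptor, 114 and 151 (0.41), whereas Csf1r differed by 0.02. Markers of Mueller glia, with a summed level of 60184 and 60498, had a median of -0.03. Their part in the Cd44 value was not tested. In whole tissue, more cells of a type and more RNA per cell cannot be told apart, nor can fewer cells and less RNA per cell.

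**Figure D3:**
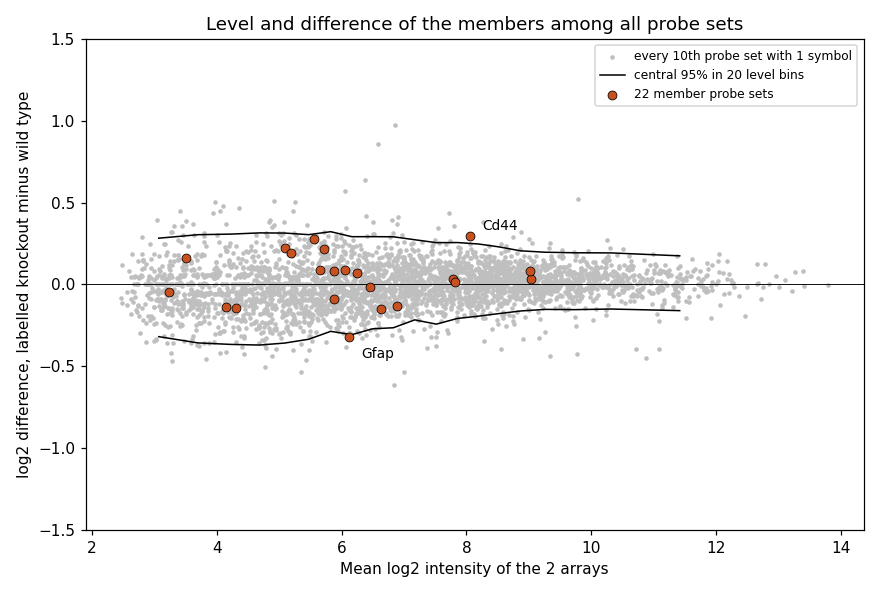
Log2 difference against mean log2 intensity for every 10th probe set with 1 symbol (grey) and the 22 member probe sets (orange); black lines bound the central 95% in 20 level bins. The members lie inside the central 95% of their level bins, apart from the named Cd44 (0.30) and Gfap (-0.32) probe sets.

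The pathways to which the 10 genes belong were read through the brightest probe set of each gene. Apart from the members, the 8 lists of related genes held 85 different measured genes. Of these 3 were at least 1.2-fold higher and 0 were lower, and their median log2 difference was -0.01. Over all 11568 measured genes 1.79% were that much higher and 1.17% that much lower, with a median of 0.01.

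In the list of cytokine signalling through gp130, 0 of 21 measured genes reached 1.2-fold either way. The median was 0.02. The receptor chains Lifr (1449 and 1467, a difference of 0.02) and Il6st, which encodes gp130 (435 and 436, 0.00), were nearly level in their brightest probe sets. A further Lifr probe set read 113 and 94.4 (-0.26) and a further one of Il6st 217 and 187 (-0.21). For Tyk2 the brightest probe set read 143 and 139 (-0.05). Its other one, also measured, read 148 and 121 (-0.30), which is past 1.2-fold lower. Osmr, the oncostatin M receptor, differed by 0.11, Pias3, an inhibitor of STAT3, by 0.19 and Stat5a by -0.21.

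Among STAT3 target genes 1 of 12 measured was at least 1.2-fold higher and 0 were lower, with a median of -0.00. The higher one was Igfbp3, a secreted binding protein of insulin-like growth factors, at 275 and 345 (0.33). Its other probe set read 196 and 281 (0.52). The transcription factor genes Junb (0.21) and Fos (-0.14) went opposite ways.

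Of the endothelin genes 0 of 5 measured reached 1.2-fold, but 4 were below 0 and the median was -0.11. Edn3, the endothelin of pigment cell development, differed by -0.29 to -0.16 in its 4 probe sets, all of them lower, and read 215 and 189 in the brightest. Ednrb, the receptor through which endothelin 2 acts on Mueller glia, read 422 and 395 (-0.10). Markers of pigment epithelium, some of them shared with other pigment cells, were lower in the same pool, with 12 of 14 below 0, a median of -0.11 and a summed level of 53386 in wild type and 49985 on the other array. Their part in the endothelin values was not tested.

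In FGF signalling 0 of 20 measured genes reached 1.2-fold and the median was 0.01. Fgf1, a ligand close to Fgf2, read 495 and 413 in its brightest probe set, a difference of -0.26 that fell just short. The receptors went both ways in theirs, with Fgfr1 at 0.16, Fgfr3 at 0.18, Fgfr2 at -0.06 and Fgfr4 at -0.25. Probe sets of one gene also disagreed in sign. Above 0 were 1 of 3 for Fgf1, 1 of 2 for Fgfr3 and 3 of 5 for Fgfr4. Of the C/EBP factors 0 of 4 measured reached 1.2-fold, and they ran from -0.09 (Cebpg) to 0.11 (Cebpb). In the Cd44 and hyaluronan list Cd44 itself was the 1 of 7 past 1.2-fold, and Ncan, a hyaluronan-binding proteoglycan, differed by 0.16. Of the relatives and receptors of Serpina3n and Lcn2, only Slc22a17, a receptor of lipocalin 2 (-0.06), and Lrp2, which encodes megalin (0.18), were measured.

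The wider list of reactive glia and retinal injury, which holds all 10 members, had 28 measured genes of 46 on the array. Of the 28, 12 were above 0 and 16 below, with a median of -0.04. At least 1.2-fold higher were 3 of them: Cd44, the adhesion molecule gene Vcam1 and the immediate early gene Egr1. Vcam1 read 453 and 596 (0.40) and was higher in all 3 of its probe sets, by 0.37 to 0.43. Egr1 read 820 and 1134 (0.47). The filament genes went different ways, with Vim at 0.16 and Nes at -0.04. The metallothioneins Mt1 (-0.21) and Mt2 (-0.24), which rise in stressed glia, were lower on the array labelled knockout. S1pr3, of the same list, was higher by a like size in its brightest probe set, at 780 and 925 (0.24). Its other probe sets differed by 0.21 and -0.03.

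**Figure D4:**
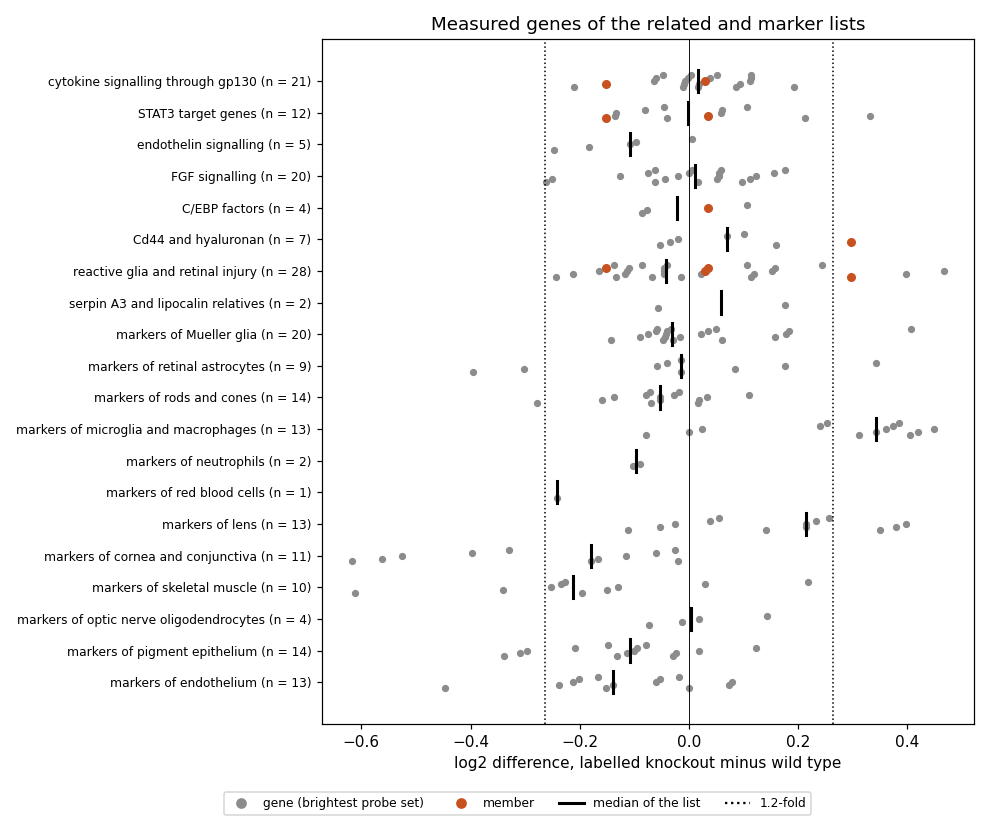
Log2 difference of the measured genes in the 8 related lists and 12 marker lists; points are genes read by their brightest probe set, orange points are members, black ticks are medians and dotted lines mark 1.2-fold. Medians of the related lists run from -0.11 for endothelin signalling to 0.07 for Cd44 and hyaluronan. Those of microglia (0.34), lens (0.21), cornea (-0.18), muscle (-0.21), endothelium (-0.14) and red blood cell (-0.24, 1 gene) markers lie further from 0.

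Measured markers of lens, cornea and muscle, which border the eye cup, had medians further from 0 than the 7 measured member probe sets (0.03). Among those 7, a Cd44 probe set differed by 0.30. The other 6 member genes were dim and are outside this comparison. Lens markers had a median of 0.21 over 13 genes, cornea and conjunctiva markers -0.18 over 11 and skeletal muscle markers -0.21 over 10. Markers of optic nerve oligodendrocytes, read by their brightest probe sets, had a median of 0.00 over 4 measured genes, but most probe sets of Mbp went another way. Of the 8 probe sets of Mbp, the myelin basic protein gene, 6 were lower on the array labelled knockout, by -2.003 to -0.74, and 2 were higher, at 0.10 and 0.14, the latter being the brightest. One of the lower ones read 574 in wild type and 171 on the other array. Among the dim markers, Olig1, an oligodendrocyte transcription factor gene, differed by -0.54, Mag by -0.34 and Mobp by -0.24 in its brightest probe set and -1.20 in another. The median over all 11 markers on the array, dim ones included, was -0.15. The part of these tissues in the members' values was not tested. With 1 pool for each genotype, the genotype cannot be told apart from how each pool was dissected and hybridised.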

How the data were processed

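The deposited table holds 1 intensity on a linear scale for each probe set and array. Per the submitters' processing notes the authors used Partek 6.6 and RMA, which corrects background, equalises arrays and summarises probes, and which shrinks differences of dim probe sets; settings are not given in the sources used here. That the scale is linear was inferred from the wild-type range of 5.15 to 20644. Symbols came from the platform annotation (34945 probe sets with 1 symbol outside the 64 controls, 932 with several, 9211 with none), and 34741 matched RefSeq by Entrez identifier. A gene took its brightest probe set. Log2 values were subtracted, and no test was made. Members, lists and sizes were chosen with earlier results of these data known. All 10 members were named. Further genes were drawn from up to 4 of largest difference and the first 3 measured in each list, but not all of these were named. Left out, for example, were Ece2, Edn1, Crym, Rdx, Nf2, Ddit3, Fgf9, Fgf12, Pim3 and Hyal2. Added after their values were seen were S100a8, S100a9, Camp, Ngp, Ltf, Mt1, Mt2, Socs1, Dusp6, Fgfr2, Tyk2, Spred1, Mag, Mobp and Olig1. So were further probe sets of Lifr, Il6st, Igfbp3, Mbp, Fgf1, Fgfr3, Fgfr4 and S1pr3. Alternatives were other sizes, floors, probe set choices, centring and loess (span 0.3, 3 iterations). Python 3.11.15, numpy 2.4.6, pandas 2.3.3 and statsmodels 0.14.6 were used, and the steps were tested on simulated data.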

Additional observations from a re-analysis of the deposited data

How the results depend on the processing

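No paired analysis was possible because there was 1 array per group. The 1 measured member probe set that was 1.2-fold higher became 0 at 1.3-fold and 0 at 1.5-fold, and with no floor the counts were 2 higher and 1 lower. It was still 1, with 0 lower, at a floor at the 70th percentile, without _s_at and _x_at probe sets, with the loess trend removed and after centring. Of the other related genes, 0 were higher at 1.5-fold. The 0 lower ones became 2 with no floor, 1 with the loess trend removed and 2 after centring on the median. Over these alternatives the median of the measured members ran from 0.0087 to 0.084 and that of the related genes from -0.028 to 0.0061. When probe sets of a gene were averaged, Lif differed by 0.04, Socs3 by 0.04 and Cd44 by 0.14, in place of 0.22, -0.15 and 0.30. Averaging also turned the sign of Gfap (0.07 to -0.06), Stat3 (0.03 to -0.008) and Cebpd (0.03 to -0.03). The floor changes which probe sets count; the cause of the other changes was not tested. Signal near background limits the values of the 15 dim probe sets.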

Other observations

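Genes that mark retinal astrocytes, the glia in which Gfap is normally made, did not move together. Of 9 measured, 1 was at least 1.2-fold higher and 2 were lower, with a median of -0.02. Gja1, which encodes the gap junction protein connexin 43, had 6 probe sets, all lower, by -0.40 to -0.10, and read 2489 in wild type and 1892 on the array labelled knockout in the brightest. S100b, a calcium-binding protein of astrocytes, read 396 and 321 (-0.30), with its other probe set at -0.27. Aldh1l1, a folate enzyme of astrocytes, read 165 and 209 (0.34), though its dim probe set differed by 0.05. Pigment epithelium and vessels also make Gja1, and their markers were lower in the same pool, with medians of -0.11 and -0.14. Oligodendrocyte markers of the optic nerve, which also carries astrocytes, were lower there too in several probe sets: 6 of the 8 of Mbp by -2.003 to -0.74, all 5 of Mobp by -1.20 to -0.11, and Olig1 by -0.54. The part of these cells in the Gja1 and S100b values was not tested.

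Exactly the same value on both arrays was found in 2159 probe sets, or 4.79% of all, among them those of Socs1 and Dusp6, an inhibitor each of cytokine and FGF signalling. None of the 22 probe sets of the gliosis and stress genes was among these.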
